A study of Mus musculus with 35 samples.

Results

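Lung endothelial genes were followed here in whole lung after inhaled styrene: Kdr, Pecam1, Cdh5, Tek, Tie1, Npr3, Ednrb, Car4, Aplnr and Vwf. The 10 genes were chosen by name with earlier results of these data known, so they are not an unselected set. Each is represented by its brightest probe set, and they are 10 of 17097 genes tested. All 10 were found on the array and none was removed by a filter on low values. Adult male wild-type C57Bl/6 mice breathed styrene, a volatile aromatic hydrocarbon, at 0, 1, 5, 10, 20, 40 or 120 ppm during one exposure of 6 h, with clean air as 0 ppm. Lungs were collected the next morning after euthanasia with pentobarbital and bleeding. Total RNA was hybridised to 35 Affymetrix HT MG-430 PM arrays, 5 arrays per dose, which the labels call biological replicates. Values are log2 signals, so a difference of 1 is a 2-fold change, and levels of different genes were not compared because probe sets bind with different strength.

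Endothelial cells line the blood vessels of the lung and form the vascular side of the barrier across which gas is exchanged. Kdr is the main signalling receptor for vascular endothelial growth factor A. Tek (also called Tie2) is the receptor of the angiopoietins, and Tie1 is its relative, which modulates Tek signalling. Npr3 binds natriuretic peptides and removes them, Ednrb is an endothelin receptor that also clears endothelin in the lung, and Aplnr is the receptor of the peptide apelin. Cdh5 (VE-cadherin) and Pecam1 hold neighbouring endothelial cells together at their junctions. Car4 is a carbonic anhydrase anchored on the luminal surface of capillaries and is prominent in aerocytes, the capillary cells specialised for gas exchange. Vwf, von Willebrand factor, is a clotting protein that endothelial cells store, mainly in larger vessels, and that platelets and megakaryocytes also carry. Whole lung also holds epithelium, smooth muscle, fibroblasts and blood cells, so that fewer endothelial cells and less RNA per endothelial cell cannot be told apart in these values.

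Tie1 and Car4 each rose at some dose, as did Vwf, and their RefSeq windows lie wholly outside the annotated span of their own gene, so the bases before their starts are shown. In GRCm38.p6 the window of Tie1 is chr4:118489850-118490099 on the minus strand, and that of Car4 is chr11:84957504-84957753 on the plus strand. Each holds 250 bases, written 5′ to 3′ in the direction of the gene, and ends at the base before the start. Capitals mark an ETS core match (AGGAAG, here as its reverse complement, 219 bases before the start of Tie1) and a KLF box (CACACCC, 72 bases before it).
Tie1: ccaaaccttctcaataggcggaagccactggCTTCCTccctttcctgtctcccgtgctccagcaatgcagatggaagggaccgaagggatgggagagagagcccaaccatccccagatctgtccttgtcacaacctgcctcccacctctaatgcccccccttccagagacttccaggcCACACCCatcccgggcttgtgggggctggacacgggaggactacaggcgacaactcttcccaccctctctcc
Car4: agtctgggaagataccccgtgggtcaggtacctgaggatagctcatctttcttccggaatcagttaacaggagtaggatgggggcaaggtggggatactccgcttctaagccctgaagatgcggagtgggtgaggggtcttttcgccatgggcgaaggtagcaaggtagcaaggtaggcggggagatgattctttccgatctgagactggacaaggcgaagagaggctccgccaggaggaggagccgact
Car4 carried none of 7 motifs, each searched on both strands. As background, of 32851 upstream windows of the same length, 29.5% held the ETS core above and 6.93% the KLF box above. The SOX motif AACAAT was in 9.42%, the GATA motif AGATAA in 9.99%, and the FOX and ETS composite AACAGGAA in 2.25%. The NF-kB motif GGGANTTCC was in 1.43% and the interferon response motif GAAANNGAA in 7.13%. Of the 6 members in the promoter table (Kdr, Tek, Tie1, Npr3, Ednrb and Car4), Tek had 1 match, a SOX motif 63 bases before its start, and the 4 other than Tek and Tie1 had none. Windows other than those of Tie1 and Car4 lie wholly or partly inside the annotated span of their own gene. A match describes letters and not a bound site.

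The arrays matched their label as lung. Surfactant protein C (Sftpc), the club cell protein Scgb1a1 and the alveolar type 1 marker Ager read 13.78 to 13.91, 13.49 to 13.97 and 13.21 to 13.68 on the log2 scale, above the nonspecific-hybridisation controls on all 35 arrays. The 5 arrays at 120 ppm stood apart from the other 30. Their poly-A spike-in controls averaged 7.93 to 8.81 against 6.10 to 7.06 at 0 to 40 ppm, and their brightest nonspecific-hybridisation control, used below as a background mark, read 6.71 to 7.36 against 4.57 to 6.43. Their upper quartile of signal was 6.32 to 6.77 against 6.90 to 6.99. The first principal component of all 35 arrays held 60.7% of the variance, and where each array lay on it was not recorded. No source used here gives scan batch, array plate or exposure chamber, so a batch at 120 ppm and the dose cannot be told apart. An array at 1 ppm and another at 5 ppm share the number 15 in their titles (correlation between them 0.983, against 0.996 for the most alike pair of arrays), and no count of changed members moved when both were left out. P-values therefore measure the spread between these arrays, whose separate animals rest on the labels.

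Signal fell with rising dose up to 40 ppm in 8 of the 10 endothelial genes, with the steepest slopes in the peptide receptors Npr3 and Aplnr and in Kdr. Over all genes 12.9% fell and 13.2% rose in that trend. At 120 ppm the genes parted into 6 that fell, 2 that rose and 2 that did not pass the test, beside 31.9% of all genes that fell and 42.9% that rose. Differences were tested with limma in one fit of all 35 arrays, and a gene is called changed where its p-value, adjusted by Benjamini-Hochberg over the 17097 genes, was under 0.05. At 1 ppm and at 5 ppm no member was called. At 1 ppm no gene of any kind was called in either direction (0% of genes), although 1190 had an unadjusted p under 0.05, none of them a member. At 5 ppm 1.13% of all genes rose and 0.0234% fell, and 1 member, Pecam1, had an unadjusted p under 0.05. All 10 differences were below 0 at 5 ppm, with a median of -0.13 against 0.0012 over all genes, but these share the same 5 control arrays.

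At 10 ppm 1 member rose, Car4, and 0 fell, where 5.17% of all genes rose and 6.62% fell. At 20 ppm Kdr, Cdh5, Tie1 and Aplnr fell and Car4 rose, so that 4 of 10 fell and 1 rose beside 6.74% and 6.45% of all genes. At 40 ppm Kdr, Tek, Npr3 and Aplnr fell and no member rose, beside 5.04% of all genes that fell and 7.69% that rose. Shares were higher among the 8077 genes whose mean signal lay above the mean background mark, all 10 members included. Of these genes 10.7% fell and 8.3% rose at 10 ppm, 10.8% and 10.2% at 20 ppm, and 7.49% and 12.7% at 40 ppm. Fitted without the 120 ppm arrays, Pecam1, Cdh5 and Ednrb fell as well at 40 ppm, giving 7 members, and Pecam1 fell at 5 ppm. Lower calls over all genes grew in that fit too, from 862 to 1368 at 40 ppm and from 4 to 16 at 5 ppm. Arrays of the dose lay wholly below the 0 ppm arrays for 5 members at 20 ppm and for 7 at 40 ppm. Such separation was not counted over all genes, so how common it is on these arrays cannot be said. The members' median difference was -0.19 at 10 ppm, -0.28 at 20 ppm and -0.39 at 40 ppm, where the medians over all genes were -0.024, -0.016 and 0.011. A straight line on log2 of dose plus 1, fitted to the 30 arrays at 0 to 40 ppm, fell for 8 of the 10 members and rose for Car4, where 12.9% of all genes fell and 13.2% rose. The moderated F test over the 7 doses called all 10 members, beside 76.3% of all genes. Because the 10 were chosen with earlier results known, their counts beside the all-gene shares are a description and not a test.

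**Figure D1:**
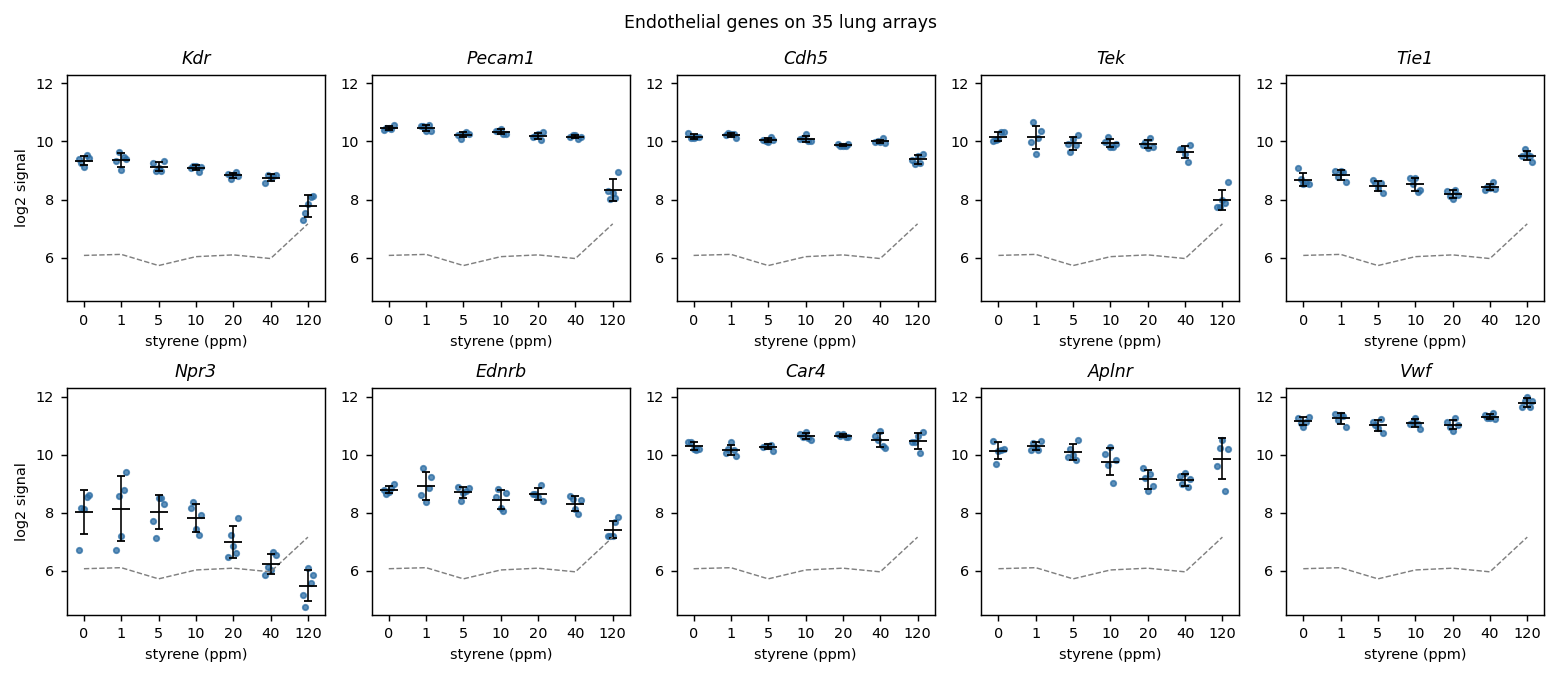
Log2 signal of the 10 endothelial genes (vertical axis) on each of the 35 lung arrays, by styrene dose in ppm (horizontal axis, doses evenly spaced). Points are arrays, the horizontal mark and bar are mean and SD of 5 arrays, and the dashed line is the mean of each dose's brightest nonspecific-hybridisation control. Kdr, Pecam1, Tek, Npr3 and Ednrb drop at 120 ppm, Tie1 and Vwf are highest there, and Aplnr is lowest at 20 and 40 ppm. Npr3 lies below the dashed line at 120 ppm.

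Kdr (chromosome 5, 75932827 to 75979072, GRCm38.p6), the vascular endothelial growth factor receptor, was lower at 20, 40 and 120 ppm. Its 0 ppm arrays read 9.39, 9.24, 9.10, 9.53 and 9.44. At 20 ppm they read 8.87, 8.70, 8.85, 8.96 and 8.79, and at 40 ppm 8.58, 8.83, 8.73, 8.81 and 8.83, all below the lowest 0 ppm array. At 120 ppm the values were 7.29, 7.52, 7.84, 8.10 and 8.14, of which 4 lay above the background mark. Kdr fell 1.42-fold at 20 ppm (log2 difference -0.51, SE 0.12, adjusted p = 0.00410), by a log2 difference of -0.59 at 40 ppm (SE 0.12, adjusted p = 0.00104) and 2.96-fold at 120 ppm (-1.56, SE 0.12, adjusted p = 4.01e-13). Its slope was -0.12 log2 units per doubling of dose plus 1 ppm between 0 and 40 ppm (SE 0.015, adjusted p = 3.99e-07).

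The related receptors Tek and Tie1, both on chromosome 4 (Tek at 94739086 to 94874976, Tie1 at 118471191 to 118489849), took opposite directions at 120 ppm. Tek read 10.02, 10.04, 10.09, 10.34 and 10.34 at 0 ppm and 7.76, 7.73, 7.99, 7.86 and 8.60 at 120 ppm, without overlap, a 4.53-fold fall (log2 difference -2.18, SE 0.15, adjusted p = 3.96e-14). It had already fallen at 40 ppm, to 9.72, 9.74, 9.58, 9.31 and 9.86 (-0.53, SE 0.15, adjusted p = 0.0195), a call that was lost without replicate 4 or 5 of the controls or replicate 4 at 40 ppm (-0.44 to -0.48, adjusted p = 0.0574 to 0.0824). Tie1 read 9.07, 8.70, 8.54, 8.58 and 8.54 at 0 ppm. At 20 ppm it read 8.31, 8.14, 8.01, 8.32 and 8.17, all lower, a 1.41-fold fall (-0.50, SE 0.11, adjusted p = 0.00179). At 40 ppm the groups overlapped and the difference did not pass the test (-0.26, SE 0.11, adjusted p = 0.127). At 120 ppm Tie1 read 9.49, 9.74, 9.57, 9.48 and 9.28, all above the highest 0 ppm array, a 1.77-fold rise (0.82, SE 0.11, adjusted p = 5.54e-08). Over 0 to 40 ppm the slopes of Tek and Tie1 were both -0.09 (adjusted p = 0.00198 and 0.00104).

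Npr3 (chromosome 15, 11839896 to 11907837), the clearance receptor of natriuretic peptides, had the steepest slope of the 10 over 0 to 40 ppm, -0.32 per log2 unit (SE 0.069, adjusted p = 0.000607), and also the widest spread. Its arrays read 6.74, 8.17, 8.14, 8.54 and 8.62 at 0 ppm, so 1 control array stood apart below the others. At 20 ppm they read 6.47, 7.23, 6.85, 6.60 and 7.83, which overlapped with the controls, and the difference did not pass the test (-1.04, SE 0.39, adjusted p = 0.0798). Without that control array (replicate 1) it was -1.37 with an adjusted p of 0.0173, and without replicate 5 at 20 ppm it was -1.25 with an adjusted p of 0.0443. At 40 ppm Npr3 read 5.87, 6.12, 6.03, 6.66 and 6.54, all below every control array, a 3.48-fold fall (-1.80, SE 0.39, adjusted p = 0.00166). Only 4 of these arrays lay above the background mark. Replicate 1 was below its mark of 6.26, and replicate 3 was barely above its mark of 6.00. The size at 40 ppm and the slope are therefore uncertain. At 120 ppm all 5 arrays (5.19, 4.75, 6.10, 5.60 and 5.85) lay below the background mark, so only a bound holds: Npr3 was at least 1.84-fold lower than at 0 ppm, taking the mean of each 120 ppm array's higher value of signal and background mark as the lower level (limma adjusted p = 8.22e-07 for the measured difference of -2.54).

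Aplnr (chromosome 2, 85136360 to 85139923), the apelin receptor, was lowest at the middle doses and not at the highest. It read 10.48, 9.67, 10.13, 10.15 and 10.21 at 0 ppm. At 20 ppm it read 9.54, 9.19, 8.76, 9.35 and 8.91 and at 40 ppm 9.27, 8.99, 9.36, 8.88 and 9.17, both groups wholly below the controls. These were falls of 1.97-fold (-0.98, SE 0.23, adjusted p = 0.00280) and 1.99-fold (-0.996, SE 0.23, adjusted p = 0.00245). At 120 ppm the arrays ranged from 8.76 to 10.51 (SD 0.695), overlapping with the controls, and the difference of -0.26 (95% confidence interval -0.73 to 0.20, adjusted p = 0.292) did not pass the test. Against 40 ppm, Aplnr was higher at 120 ppm by 0.73 (SE 0.23, adjusted p = 0.00523), although 1 of the 5 arrays, at 8.76, lay below all arrays at 40 ppm.

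Ednrb (chromosome 14, 103814615 to 103844508), the endothelin receptor, read 8.79, 8.66, 8.70, 8.85 and 8.99 at 0 ppm and 8.56, 8.49, 8.12, 7.96 and 8.42 at 40 ppm. The groups did not overlap, yet the difference of -0.49 (SE 0.18) missed the threshold with an adjusted p of 0.0673. At 120 ppm it read 7.19, 7.22, 7.20, 7.67 and 7.84, a 2.59-fold fall (-1.37, SE 0.18, adjusted p = 2.34e-08), but only 2 of these arrays were above the background mark. Its slope over 0 to 40 ppm was -0.093 (adjusted p = 0.0108).

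The junction genes moved little up to 40 ppm and with small spread. Pecam1 (chromosome 11, 106654213 to 106715281) read 10.39, 10.45, 10.47, 10.44 and 10.57 at 0 ppm. At 40 ppm it read 10.15, 10.22, 10.22, 10.09 and 10.14, wholly below the controls, with a difference of -0.30 (SE 0.10) that missed the threshold (adjusted p = 0.0559). At 120 ppm its arrays read 8.31, 8.02, 8.23, 8.06 and 8.95, a 4.44-fold fall (-2.15, SE 0.10, adjusted p = 1.55e-17). Cdh5 (chromosome 8, 104101613 to 104144504) read 10.29, 10.12, 10.11, 10.16 and 10.15 at 0 ppm and 9.91, 9.86, 9.86, 9.85 and 9.90 at 20 ppm, a 1.22-fold fall (-0.29, SE 0.067, adjusted p = 0.00263). At 40 ppm Cdh5 arrays were again all lower than the controls, with a difference of -0.16 that did not pass the test (adjusted p = 0.118). At 120 ppm Cdh5 read 9.36, 9.23, 9.51, 9.25 and 9.58, a 1.72-fold fall (-0.78, SE 0.067, adjusted p = 3.70e-12). Over 0 to 40 ppm both slopes fell, at -0.060 for Pecam1 and -0.049 for Cdh5 (adjusted p = 4.26e-05 and 0.000559).

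Car4 (chromosome 11, 84957754 to 84966054) was the only member that rose at any dose up to 40 ppm. It read 10.45, 10.44, 10.21, 10.17 and 10.19 at 0 ppm, 10.72, 10.59, 10.77, 10.59 and 10.50 at 10 ppm, and 10.70, 10.65, 10.71, 10.62 and 10.62 at 20 ppm. Both dose groups lay wholly above the controls, by 1.27-fold at 10 ppm (0.34, SE 0.11, adjusted p = 0.0395) and 1.29-fold at 20 ppm (0.37, SE 0.11, adjusted p = 0.0226). The call at 10 ppm was lost when any 1 of 7 of the 10 arrays compared was left out (replicates 3, 4 and 5 of the controls and replicates 1 to 4 at 10 ppm, 0.31 to 0.35, adjusted p = 0.0580 to 0.0992), and the call at 20 ppm without replicates 3, 4 or 5 of the controls or replicate 3 at 20 ppm (0.34 to 0.35, adjusted p = 0.0517 to 0.0612). At 40 and 120 ppm the differences were 0.21 and 0.18, and neither passed the test (adjusted p = 0.259 and 0.138). Its slope over 0 to 40 ppm was 0.076 (SE 0.018, adjusted p = 0.00183), with the line also rising without any one array.

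Vwf (chromosome 6, 125552948 to 125686679) had no called slope over 0 to 40 ppm (0.0015, 95% confidence interval -0.035 to 0.038, adjusted p = 0.968). It read 11.27, 11.10, 10.96, 11.14 and 11.29 at 0 ppm and 11.63, 11.85, 11.98, 11.65 and 11.83 at 120 ppm, a 1.55-fold rise without overlap (0.63, SE 0.10, adjusted p = 1.09e-06). Platelet and megakaryocyte markers moved at 120 ppm as well. Of 7 measured, 6 rose and 1 fell (median difference 1.24), beside 42.9% of all genes that rose and 31.9% that fell. Their mean signal was 6.87 to 7.18 per array against 6.15 to 6.57 at 0 ppm. The background mark itself read 6.71 to 7.36 at 120 ppm and 5.90 to 6.34 at 0 ppm, so the list mean at 120 ppm lay within the range of the mark. Only 3 of the 7 were above the background mark on all 5 arrays at 0 and at 120 ppm, and Itga2b, Gp6 and Treml1 were below it on all of them. Of the marker genes, Gp1bb was at least 3.97-fold higher, Pf4, a platelet chemokine, rose by 0.40 (SE 0.12), and Ppbp, another platelet chemokine, fell by 2.03 (SE 0.20). The part of platelets in the Vwf value was not tested.

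**Figure D2:**
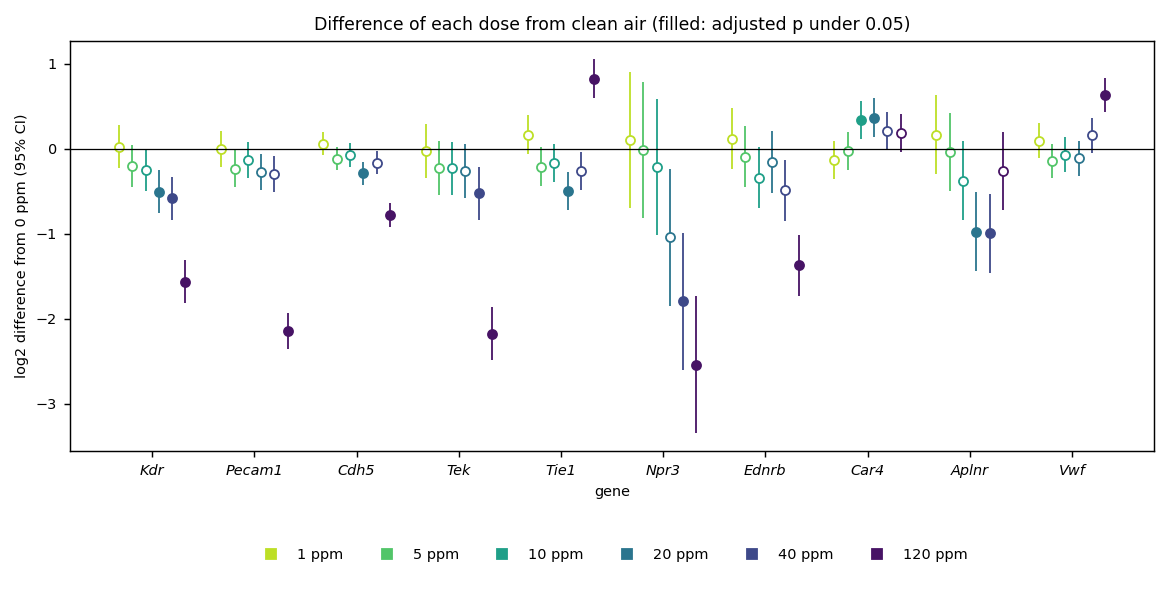
Log2 difference of each dose from 0 ppm (vertical axis) for each of the 10 endothelial genes (horizontal axis), with the 95% confidence interval of the limma fit, 5 arrays per dose. Filled points passed the adjusted p threshold of 0.05. Points move downward with dose in Kdr and Npr3, Tie1 changes side between 40 and 120 ppm, and Aplnr returns toward 0 at 120 ppm.

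At 120 ppm 6 members fell and 2 rose, in a comparison in which 31.9% of all genes fell and 42.9% rose, so a call alone says little there. Sizes differed: the members' median difference was -1.08 against 0.15 over all genes. Dim and bright genes differed here. Among the 8077 genes whose mean signal lay above the mean background mark of 6.17, all 10 members included, the median was -0.34, with 50.7% lower and 37.1% higher. Compared with 40 ppm, the 120 ppm arrays showed 5 members lower (Kdr, Pecam1, Cdh5, Tek and Ednrb) and 3 higher (Tie1, Aplnr and Vwf), beside 31.1% of all genes lower and 39.8% higher. Among the members the largest steps down were in Pecam1 (-1.85, SE 0.10, adjusted p = 9.95e-16) and Tek (-1.65, SE 0.15, adjusted p = 3.02e-11), and the largest step up was in Tie1 (1.09, SE 0.11, adjusted p = 2.03e-10). Npr3 (-0.74, adjusted p = 0.0906) and Car4 (-0.027, adjusted p = 0.835) did not pass. With the mean poly-A spike-in signal of each array added to the model, a value that separates the 120 ppm arrays from all others, Kdr, Pecam1, Cdh5 and Tek still fell against 0 ppm. The other 4 calls were lost, with Tie1 at 0.18 (adjusted p = 0.607), Vwf at 0.14 (adjusted p = 0.688), Npr3 at -0.53 (adjusted p = 0.696) and Ednrb at -0.40 (adjusted p = 0.474). Calls over all genes shrank too, from 7342 higher and 5450 lower to 2124 and 2418, so a lost call is not particular to these members.

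Other probe sets of the same genes served as a check, in a fit of all probe sets. There were 6, for Npr3 (2), Aplnr, Car4, Cdh5 and Ednrb. All 6 had the sign of the brightest probe set at 20, 40 and 120 ppm, but at 120 ppm the one for Car4 alone was above the background mark on any array, and the third probe set of Npr3 was below it on all arrays at 20 and 40 ppm as well. The second probe set of Npr3 fell by 1.09 at 20 ppm (SE 0.31, adjusted p = 0.0206), where the brightest missed the threshold, and by 1.54 at 40 ppm (adjusted p = 0.00100). It was above the background mark on 2 of 5 arrays at 20 ppm and on 1 of 5 at 40 ppm, so these sizes are uncertain. The second probe set of Aplnr fell by 0.72 at 20 ppm (SE 0.21, adjusted p = 0.0217) and by 0.83 at 40 ppm (adjusted p = 0.00732), with 1 of 5 arrays above the background mark at each of these doses. The second probe set of Car4 rose by 0.35 at 10 ppm (adjusted p = 0.0416), 0.37 at 20 ppm (adjusted p = 0.0217) and 0.25 at 120 ppm (adjusted p = 0.0438). The second probe set of Cdh5 had the same size at 20 ppm (-0.29, SE 0.15) but did not pass (adjusted p = 0.299).

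**Figure D3:**
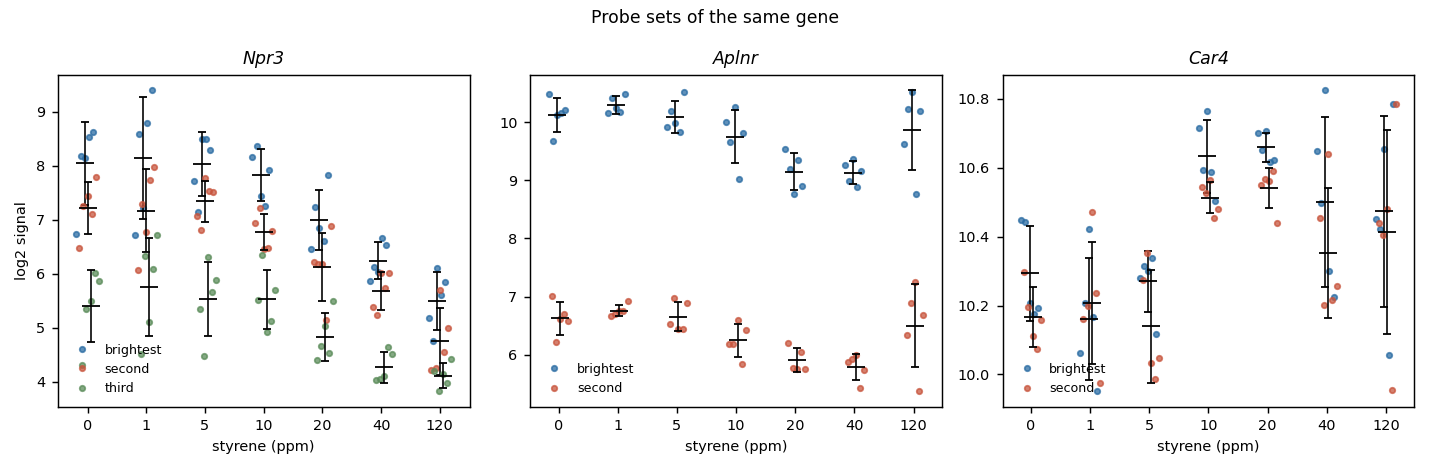
Log2 signal (vertical axis, a separate range per gene) of the probe sets of Npr3, Aplnr and Car4 on 35 arrays by styrene dose in ppm (horizontal axis, evenly spaced). Points are arrays, marks and bars are mean and SD of 5 arrays, and colours rank the probe sets by mean signal. The probe sets of Npr3 descend toward 120 ppm, both of Aplnr are lowest at 20 and 40 ppm, and both of Car4 are higher at 10 and 20 ppm than at 0 ppm.

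Within dose groups the 10 genes did not vary as one block. After each dose group's mean was subtracted, the 45 pairs of members correlated from -0.48 (Tek with Tie1) to 0.84 (Tek with Ednrb) over 35 arrays, with a median of 0.22 and 30 pairs above 0. Over the 30 arrays at 0 to 40 ppm the same pairs ran from -0.46 to 0.87, again highest for Tek with Ednrb, and Tie1 with Vwf reached 0.73. These arrays share their hybridisation and normalisation, so the values are descriptive. The genes whose signal was most like the mean of the 10 over all 35 arrays were Plpp3 (Pearson r 0.958), Synm (0.955), Jmy (0.953), Stard9 (0.953) and Klhl24 (0.948), a likeness that includes the step at 120 ppm. With dose means removed, Lhfp (0.802), Pabpc1 (0.798), Plpp3 (0.790), Dhx57 (0.785) and Prkce (0.778) were the most alike.

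Ligands and partner receptors of the 10 genes were next, as a list of 16 measured genes. At 20 ppm 1 rose and 3 fell, at 40 ppm 2 rose and 2 fell, and at 120 ppm 4 rose and 9 fell (medians -0.093, -0.10 and -0.39). Beside the counts in this and the following lists, 5.17% of all genes rose and 6.62% fell at 10 ppm. The shares were 6.45% and 6.74% at 20 ppm, 7.69% and 5.04% at 40 ppm, and 42.9% and 31.9% at 120 ppm. Placental growth factor (Pgf), a ligand of Flt1, was below the background mark on all control arrays and was at least 1.55-fold higher at 40 ppm and at least 3.76-fold higher at 120 ppm. Flt1, the decoy-like receptor of vascular endothelial growth factor A, fell by 0.36 at 40 ppm (SE 0.12, adjusted p = 0.0394) and by 1.32 at 120 ppm (SE 0.12, adjusted p = 1.07e-11). Ptprb, the phosphatase that restrains Tek, fell by 1.37 at 120 ppm (SE 0.13), and its 40 ppm difference was -0.38 and not called. Vegfc, a ligand of the lymphatic receptor Flt4, rose by 0.49 at 40 ppm (SE 0.11, adjusted p = 0.00217). Npr2, a natriuretic peptide receptor that signals, fell by 0.46 at 20 ppm (SE 0.08, adjusted p = 0.000129). Angpt2, an angiopoietin, and Npr1 were called lower at 20 ppm but lay below the background mark on all arrays of both groups, so no size is given.

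Of 18 other surface and junction genes, 5 fell and 1 rose at 20 ppm, 1 rose at 40 ppm, and 10 rose and 5 fell at 120 ppm, with a median of 0.39 at that dose. At 20 ppm Clec14a fell by 0.42, Icam2 by 0.36, Ramp2 by 0.34 and Acvrl1 by 0.32, and Mcam rose at 40 ppm by 0.41 (SE 0.10). At 120 ppm Nos3, the endothelial nitric oxide synthase, rose by 1.67 (SE 0.15, adjusted p = 1.06e-11). In the same arrays Cd93 fell 2.83-fold (SE 0.15 on the log2 scale), the capillary sialomucin Emcn fell by 1.47 (SE 0.19), and the junction molecule Jam2 was at least 1.17-fold lower, below the background mark on all 5 arrays. Transcription factors also went both ways. Of 14, Sox17 rose and Hey1 fell at 20 ppm, Sox17 and Klf4 rose and Hey1 fell at 40 ppm, and 6 rose and 5 fell at 120 ppm. Sox17 rose by 0.46, 0.61 and 1.38 at 20, 40 and 120 ppm (SE 0.14 each). Hey1, a Notch target, fell by 0.86 and 0.75 at 20 and 40 ppm (SE 0.19). The ETS factors of endothelium fell at 120 ppm, Ets1 by 1.71 (SE 0.14) and, below the background mark on all 5 arrays, Fli1 at least 1.61-fold and Erg at least 1.26-fold. Over all the lists of endothelial and partner genes, of 81 other genes 28 rose and 35 fell at 120 ppm. At 20 ppm 6 rose and 12 fell, and at 40 ppm 9 rose and 6 fell. With 42.9% of all genes higher and 31.9% lower at 120 ppm, the counts of these lists at that dose say little alone.

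**Figure D4:**
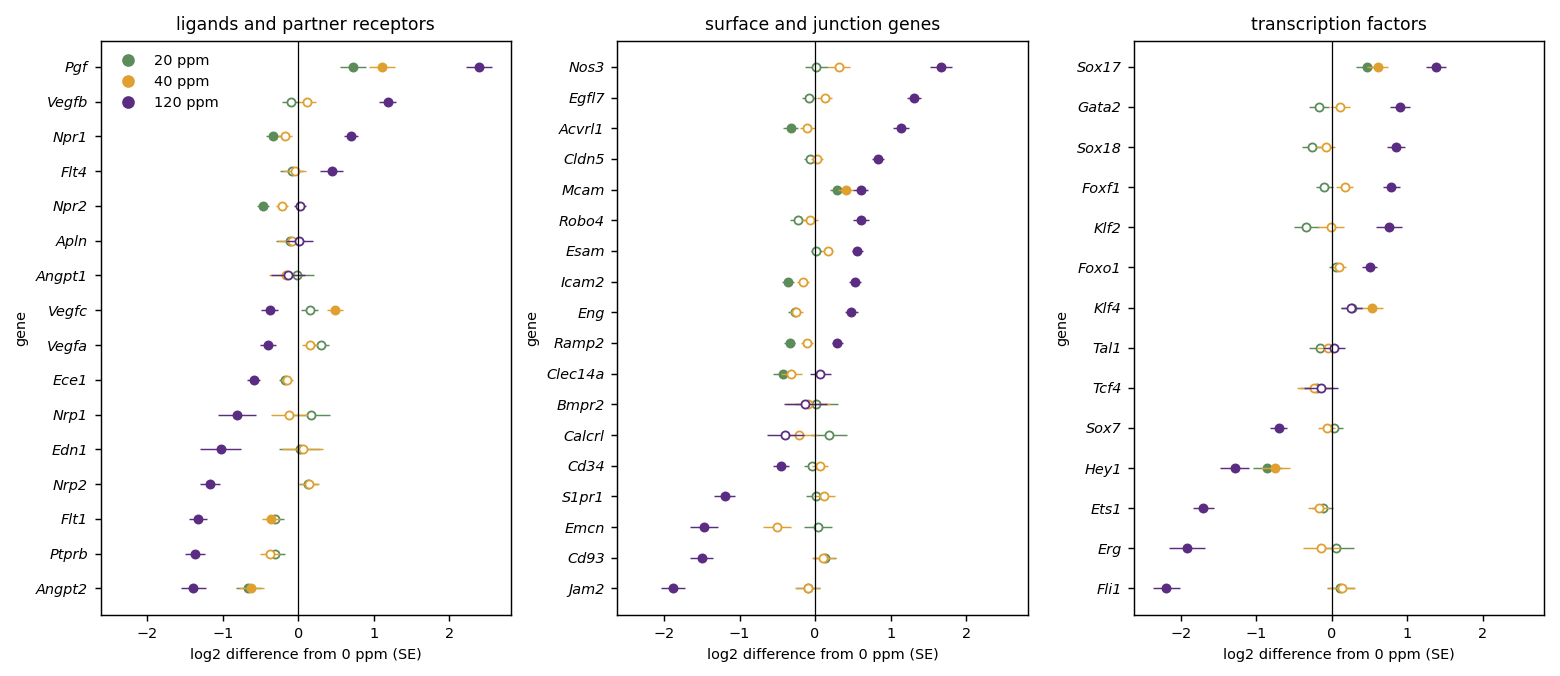
Log2 difference from 0 ppm (horizontal axis, with SE) at 20, 40 and 120 ppm for genes of 3 lists (vertical axis): ligands and partner receptors, other surface and junction genes, and endothelial transcription factors. Each point rests on 5 arrays against 5, and filled points passed the adjusted p threshold. At 20 and 40 ppm most genes lie near 0, while at 120 ppm each list spreads to both sides, from Fli1 to Pgf.

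Markers of vessel types were counted next. Among 6 general capillary genes, Plvap fell by 0.43 at 20 ppm (SE 0.09, adjusted p = 0.000820) and 0.47 at 40 ppm, and Gpihbp1, which anchors lipoprotein lipase on capillaries, fell by 0.42 and 0.27. At 120 ppm Plvap rose by 0.53 (SE 0.09), and Kit and Cd36 fell by 2.17 (SE 0.23) and 1.30 (SE 0.21). None of 6 aerocyte genes passed at 20 or 40 ppm, and 2 rose (Chst1 by 1.54, Tbx2 by 1.29) and 3 fell at 120 ppm. Among 7 artery genes Hey1 and the Notch ligand Dll4 fell at 20 and 40 ppm, Dll4 by 0.57 and 0.69 (SE 0.16). At 120 ppm 2 artery genes rose and 3 fell, among them Gja4, a gap junction protein, which rose by 1.79 (SE 0.16), and Hey1, which fell by 1.29 (SE 0.19). Of 5 vein genes Selp rose at 20 and at 40 ppm. At 120 ppm 1 vein gene rose, Ephb4, an ephrin receptor, by 1.47 (SE 0.11), and 4 fell (median -0.62), with Amigo2 down by 1.35 (SE 0.22). Of 4 lymphatic genes none passed at 20 or 40 ppm while 3 fell at 120 ppm. Lyve1, a hyaluronan receptor, fell by 1.49 (SE 0.24). Reln was below the background mark on all 5 arrays at 120 ppm and Mmrn1 on all arrays of both groups, so no size is given for them. In the activation list of 8 genes, 3 rose and 0 fell at 20 ppm, 4 rose and 0 fell at 40 ppm, and 2 rose and 3 fell at 120 ppm. P-selectin (Selp), which captures leukocytes and is also made by platelets, was below the background mark in all controls and was at least 1.56-fold higher at 20 ppm and at least 1.22-fold at 40 ppm. It was called lower at 120 ppm, where it lay below the mark on all 5 arrays as in the controls. Procr, the protein C receptor, rose by 0.82 and 0.61 (SE 0.12), and Icam1, an adhesion molecule for leukocytes that epithelium also carries, by 0.43 and 0.36 (SE 0.07). At 120 ppm Procr rose by 1.29 (SE 0.12), thrombomodulin (Thbd), which binds thrombin, fell by 0.80 (SE 0.10), and the adhesion molecule Vcam1 was called lower but lay below the background mark on all 5 arrays, so no size is given.

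Markers of other lung cells moved at the same doses, and their part in the endothelial differences was not tested. Of 7 pericyte and smooth muscle genes, 4 rose at 10 ppm, 1 at 20 ppm and 3 at 40 ppm with none lower, and 5 rose and 1 fell at 120 ppm. Their mean signal was 7.217 to 7.497 per array at 0 ppm. It was 7.64 to 8.09 at 20 ppm, 7.68 to 8.16 at 40 ppm and 8.02 to 8.37 at 120 ppm, without overlap with the controls. At 1 ppm, with no gene of the list called, it ran from 7.492 to 8.448. The 1 ppm median of 7.90 lay above those at 20 ppm (7.69) and 40 ppm (7.72), so the shift did not follow dose order. Acta2, smooth muscle actin, rose by 0.80 at 20 ppm and 0.96 at 40 ppm (SE 0.15), and the pericyte marker Rgs5 was below the background mark on all arrays at 0 and 120 ppm. Of 5 club and ciliated cell genes, 3 fell and 0 rose at each of 10, 20 and 40 ppm (medians -0.31, -0.47 and -0.25), 4 of the 5 fell in the line over 0 to 40 ppm, and 2 rose and 3 fell at 120 ppm. All 5 were above the background mark on every array. Their mean signal was 11.80 to 12.22 per array at 0 ppm, 11.48 to 11.86 at 20 ppm, 11.62 to 11.95 at 40 ppm and 11.99 to 12.08 at 120 ppm. Cyp2f2, the club cell cytochrome that oxidises styrene, fell by 0.66 at 20 ppm and 0.69 at 40 ppm (SE 0.08), and the secretory protein gene Scgb3a2 by 0.54 and 0.57 (SE 0.10). Of 3 alveolar type 2 genes none passed at 20 or 40 ppm, and 1 fell at 120 ppm. Of 7 fibroblast genes 1 rose and 1 fell at 20 ppm, 1 rose and 2 fell at 40 ppm, and 2 rose and 3 fell at 120 ppm. Their mean signal was 7.88 to 8.28 per array at 0 ppm and 7.66 to 7.82 at 120 ppm. Of 6 leukocyte genes, 2 rose at 20 ppm and 2 at 40 ppm (Cd68 and Marco), and 2 rose and 2 fell at 120 ppm. Of 3 red cell genes Alas2 fell at 20 and 40 ppm, and at 120 ppm 2 rose. Of 4 alveolar type 1 genes, Aqp5 rose at 20 and 40 ppm, and 2 rose and 2 fell at 120 ppm. None of the 6 cardiac muscle genes passed in any of these comparisons, but their signal varied widely between arrays of the same dose. Their mean was 6.88 to 8.20 per array at 0 ppm, 6.10 to 10.58 at 1 ppm and 5.93 to 8.78 at 10 ppm.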

How the data were processed

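The 35 arrays are Affymetrix HT MG-430 PM. The authors deposited log2 probe set signals; RMA and Partek are named in the submitters' processing notes, without versions or settings, and no source used here gives further steps. Array number limits precision, since no counts lie behind these values. Of 45141 probe sets, 104 controls were left out, and 28898 carried 1 gene symbol. The brightest per gene by mean over 35 arrays gave 17097 genes. Coordinates and promoters are RefSeq's for GRCm38.p6.

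One mean per dose was fitted with limma 3.58.1 in R 4.3.3 (lmFit, eBayes; 28 residual and 4.617 prior degrees of freedom), and tests were two-sided, with Benjamini-Hochberg adjustment over all genes and a threshold of 0.05. On data simulated for 40 against 0 ppm over 17097 genes, 50 genes were changed at each fold. Of those set to 1.25-fold 20% were recovered, of those set to 1.5-fold 76%, and of those set to 2-fold 98%. Far more genes were called at 40 ppm in the data (1315 higher and 862 lower). The adjusted threshold depends on that number, so recovery in the data can differ. A group below the brightest of 23 nonspecific controls on all 5 arrays has only a bound. The 10 genes and all lists (129 of 143 genes matched) were chosen with earlier results of these data known. Named were all 10 members, up to 4 called genes per list with the largest change, and 5 genes by likeness in each of 2 measures. The alternatives tried are given in the closing section. Same-numbered replicates of different doses were treated as unpaired, since the labels give no pairing. Correlations of their deviations ran from -0.443 to 0.535 and were not all over 0.1 in any comparison. All were positive against 0 ppm at 40 ppm (0.078 to 0.482) and at 120 ppm (0.0084 to 0.212). These values cannot exclude a pairing or a shared order.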

Additional observations from a re-analysis of the deposited data

Results flagged for a closer look

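Among 70 sets of 5 arrays (10 genes at 7 doses), 4 had 1 array far from the other 4 by Dixon's ratio, where chance gives about 1 in 20, or 3.5 of 70. Cdh5 at 0 ppm had a highest array of 10.29 (replicate 1, the next at 10.16), and at 1 ppm a lowest array of 10.10 (replicate 5, the next at 10.23). Npr3 at 0 ppm had a lowest array of 6.74 (replicate 1, the next at 8.14). Car4 at 5 ppm had a lowest array of 10.12 (replicate 5, the next at 10.28).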

How the results depend on the processing

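Counts of changed members stayed within 1.5 times those reported except as follows. At 10 ppm the 1 call (Car4) became 0 with all non-control probe sets, with arrays centred on their median and with a fold change of at least 1.5, and leaving out 1 array in turn gave 0 to 1. At 20 ppm the 5 calls became 1 with a fold of at least 1.5 and 8 with poly-A spike-in signal in the model (4 to 6 leaving out 1 array). At 40 ppm the 4 became 8 with array weights and 7 without the 120 ppm group (3 to 4 leaving out 1 array). Calls over all genes grew there too, from 1315 higher and 862 lower to 2192 and 1691 with array weights. Without the 120 ppm group they were 1727 and 1368. At 5 ppm the 0 became 1 without the 120 ppm group. At 120 ppm the 8 calls became 4 against 0 ppm, and 8 became 2 against 40 ppm (Pecam1 and Cdh5), with the poly-A covariate (8 to 9 and 8 leaving out 1 array). With that covariate, calls over all genes shrank from 7342 higher and 5450 lower to 2124 and 2418 against 0 ppm. Against 40 ppm they shrank from 6798 and 5318 to 1266 and 2016. The trend count was 9 in each alternative. With the replicate block, 6 members were called at 20 ppm and 5 at 40 ppm, Npr3 and Ednrb being the additions. Other counts of members were as reported. Over all genes the block gave 1440 higher and 984 lower at 40 ppm, where the main fit gave 1315 and 862. The labels give no pairing by replicate number. Among values called in the main fit or in the alternative, signs turned in 4. Values called in neither were not checked for sign. With the poly-A covariate, Ednrb was 0.12 and Vwf -0.033 at 120 against 40 ppm, neither called. With cyclic loess normalization, chosen after seeing the data, Car4 was 0.26 at 120 against 40 ppm (limma adjusted p = 0.0194). With all 35 arrays in the trend, Tie1 had a slope of 0.047 and was not called, while Vwf was. Centring arrays changed the split of all genes from 1102 higher and 1153 lower to 1131 and 869 at 20 ppm, and from 1315 and 862 to 1500 and 586 at 40 ppm. The causes were not tested. Signals near the nonspecific controls limit Npr3, Ednrb and Kdr at 120 ppm, and Npr3 at 40 ppm as well.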
